A study of Homo sapiens with 22 samples.

Results

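Laminins are cross-shaped proteins of the basement membrane, the sheet of matrix beneath epithelia, and each is built from an α, a β and a γ chain that are wound together before secretion. Nidogens are smaller glycoproteins that bind the γ1 chain and type IV collagen and so link the laminin and collagen networks. In the renal tubule the basement membrane holds mainly laminins with the α5 chain, while laminin-332, which holds the α3 and β3 chains, anchors epithelial cells through the integrin α6β4.

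The RNA of 9 genes of these families was followed, namely the α chains LAMA3, LAMA4 and LAMA5, the β chains LAMB1, LAMB2 and LAMB3, the γ chain LAMC1, and the nidogens NID1 and NID2. They were picked by gene symbol from a table of 36859 genes, by a rule that uses no measured value but was written with earlier results of these data known. RNA-seq had been run on human renal proximal tubule epithelial cells (RPTEC) immortalized with hTERT, in 22 libraries that form 11 groups of 2. In medium with 2% serum there were untreated WT cells, the knockout (KO) clones of SETD2, KO1 and KO2, WT cells given TGF-β at 10 ng/ml over 72 h, and a line labelled KO2_Rescue. In medium with 10% serum there were the rescue clones Rescue1 and Rescue2, which are KO cells transduced with SETD2, and WT lines that carry PRRX1, OCT2, SOX2 or, as their control, eGFP after lentiviral transduction. SETD2 is the methyltransferase that trimethylates histone H3 at lysine 36. Each KO group is 1 clone edited with Cas9, each of Rescue1 and Rescue2 is also 1 clone, and the lines with ectopic factors were selected in bulk with puromycin. No untransduced WT library was grown in 10% serum, so serum, transduction and the groups in 10% serum cannot be told apart from each other when they are set against the 2% serum groups. Nothing in the descriptions says that duplicates came from separate cultures, so p-values measure only the spread between these libraries, which may be technical.

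Depth was approximately 8600000 to 18800000 reads per library. SETD2 itself was at 1852 and 2061 normalized counts in WT, 1046 and 1130 in KO1, 1050 and 1052 in KO2, and 9764 to 10445 in Rescue1 and Rescue2. The libraries labelled KO2_Rescue held 834 and 820 counts of SETD2, below KO2, which goes against the label. A supplementary table of the study heads the values of KO1 and KO2 the other way round, so the clone from which the rescue lines came is uncertain. The 14 renal epithelial markers summed to 13809 to 13815 counts in KO1 and 18303 to 19618 in KO2, against 23577 to 25978 in untreated WT. The sums were 21911 to 21923 after TGF-β, 29029 to 31274 in the rescue clones and 18618 to 19893 in eGFP cells. The sum was thus lower in the KO clones than in untreated WT, but the markers did not all move together. Of the 12 tested, 3 were called higher and 3 lower in KO1, and 2 higher and 2 lower in KO2. KRT8 (3952 to 25190 counts) and PAX8 (1535 to 6561) were high in all libraries, while SLC34A1 did not exceed 8.47 and LRP2 was listed at 0 in 20 libraries. The endothelial markers, which mark the cells that make most laminin α4 in tissue, summed to at most 157 counts per library, and EMCN was at 0 in all 22 libraries. These sums were 126 to 149 in KO1 and 152 to 157 in KO2, against 4.99 to 40.3 in WT and 5.09 to 5.68 with TGF-β. They were 90.2 to 138 in Rescue1 and 8.77 to 45.4 in Rescue2. In each KO clone 1 of the 4 endothelial markers tested was called, higher. In KO1 and KO2, 8 fibroblast and pericyte genes summed to 223514 to 236665 and 100102 to 103715 counts, against 853 and 12454 in WT, 46389 to 47810 with TGF-β and 852 to 1558 in the rescue clones. In both clones 4 of the 8 were called, all higher. Over all genes tested, 25.0% were called in KO1 and 16.3% in KO2. DCN, at up to 234809 counts in a library, carried most of the KO1 sum, while COL1A2, RGS5 and PDGFRB did not exceed 28.1, 40.7 and 63.5 counts in any library. The part of these marker levels in the differences described here was not tested. Levels in these bulk libraries cannot tell fewer cells making a transcript from less of it in each cell.

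On GRCh38, as annotated in GENCODE release 44, the α chain genes are LAMA3 on chromosome 18 from 23689453 to 23956222 on the plus strand, LAMA4 on chromosome 6 from 112107931 to 112254939 and LAMA5 on chromosome 20 from 62307955 to 62367312, the last 2 on the minus strand. LAMB1 lies on chromosome 7 from 107923799 to 108003213, LAMB2 on chromosome 3 from 49121114 to 49133118 and LAMB3 on chromosome 1 from 209614870 to 209652425, all on the minus strand. LAMC1 spans 183023420 to 183145592 of chromosome 1, plus strand. NID1, on the minus strand of chromosome 1, spans 235975830 to 236065109, and NID2, on the minus strand of chromosome 14, spans 52004809 to 52069059. The canonical transcripts run from 4014 bases for LAMB3 to 11426 bases in 80 exons for LAMA5, so levels were divided by this length for the shares and sums of the chains. For LAMA3 this length is 10651 bases in 75 exons, but its RefSeq promoter, at 23872770 to 23873069, lies inside the gene. Which LAMA3 transcript these cells make was not examined. A shorter one would raise the LAMA3 share and the α chain sums, and lower the shares of the other α chains.

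The sequences around the start sites of NID2, LAMB1 and LAMA4, the called members that moved most in any comparison, show how different these promoters are. RefSeq sequences on GRCh38.p14, from 250 bases before to 50 bases after the start, are given on the strand of each gene. Capitals mark every match, on either strand, to the letters GGGCGG (SP1), TGANTCA (AP-1), CANNTG (E-box) or CAGAC (the SMAD motif of TGF-β signalling).
NID2 (chr14:52069010-52069309, minus strand): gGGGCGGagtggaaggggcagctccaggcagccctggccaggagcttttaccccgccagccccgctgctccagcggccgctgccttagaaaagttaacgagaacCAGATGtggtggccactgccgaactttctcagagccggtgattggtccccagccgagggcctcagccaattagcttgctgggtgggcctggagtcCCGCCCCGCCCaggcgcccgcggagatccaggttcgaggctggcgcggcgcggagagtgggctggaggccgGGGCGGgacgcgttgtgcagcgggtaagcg
LAMB1 (chr7:108003112-108003411, minus strand): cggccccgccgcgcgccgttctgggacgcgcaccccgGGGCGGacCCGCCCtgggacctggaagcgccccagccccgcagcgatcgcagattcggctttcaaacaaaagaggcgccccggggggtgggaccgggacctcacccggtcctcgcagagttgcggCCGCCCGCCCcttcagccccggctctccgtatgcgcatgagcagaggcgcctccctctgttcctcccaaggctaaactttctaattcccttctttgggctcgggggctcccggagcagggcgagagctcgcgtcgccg
LAMA4 (chr6:112254518-112254817, minus strand): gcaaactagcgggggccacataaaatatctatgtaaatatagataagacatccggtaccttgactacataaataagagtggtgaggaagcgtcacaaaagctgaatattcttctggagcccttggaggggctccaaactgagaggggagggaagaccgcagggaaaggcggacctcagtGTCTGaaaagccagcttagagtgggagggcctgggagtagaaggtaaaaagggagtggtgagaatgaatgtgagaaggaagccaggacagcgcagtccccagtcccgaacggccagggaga
NID2 and LAMB1 had G+C contents of 69.0% and 71.0% and 4 SP1 matches each. Those of NID2 began at positions −249, −51, −46 and 21 from the start site, and 2 of those of LAMB1, at −88 and −84, overlapped. LAMA4, at 51.3% G+C, had no SP1 match and a single SMAD match at −71. Of 35116 promoters of this length, 45.0% held an SP1 match, 45.3% a SMAD match, 68.7% an E-box and 7.71% an AP-1 match, so all but the AP-1 letters are common. A match is a description of the letters and says nothing about binding.

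Per kilobase of transcript, untreated WT cells held more α3 and α5 than any other α chain. LAMA3, the α chain of laminin-332, was at 10127 and 10657 normalized counts, which made 50.8% and 57.0% of the summed α chain level per kilobase of canonical transcript. LAMA5, the α chain of laminin-511 and laminin-521, was at 9352 and 7413 counts, or 43.8% and 37.0%. LAMA4, which is typical of endothelial and mesenchymal laminins, was at 676 and 742 counts, or 5.00% and 5.85%. LAMA1 and LAMA2, which are not among the 9 genes, did not exceed 0.198%. WT cells thus transcribed mainly the α3 and α5 chains.

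The β chains of WT cells were more evenly mixed. LAMB1, the widespread β1 chain, was at 2346 and 1192 counts, LAMB2, the β2 chain of the glomerular basement membrane, at 1177 and 1177, and LAMB3, the β3 chain of laminin-332, at 902 and 656. Their shares of the β chain level per kilobase were 49.0% and 36.3%, 24.4% and 35.5%, and 26.5% and 28.1%. The WT duplicates lay further apart for LAMB1 than for the other β chains. Some other basement membrane genes were also higher in the first WT library, such as COL4A1 (5934 and 125 counts) and NTN4 (1736 and 322). Others, such as FBLN1 (551 and 698) and COL4A4 (878 and 1025), were higher in the second.

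LAMC1, the γ1 chain found in most laminins, was at 312 and 334 counts in WT cells. Summed per kilobase, the α chains came to 1870 and 1755 and the β chains to 848 and 582. By counts not divided by length, the nidogens were the lowest of the 9 genes in WT cells, with NID1 at 57.2 and 70.3 counts and NID2 at 12.2 and 10.6.

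**Figure D1:**
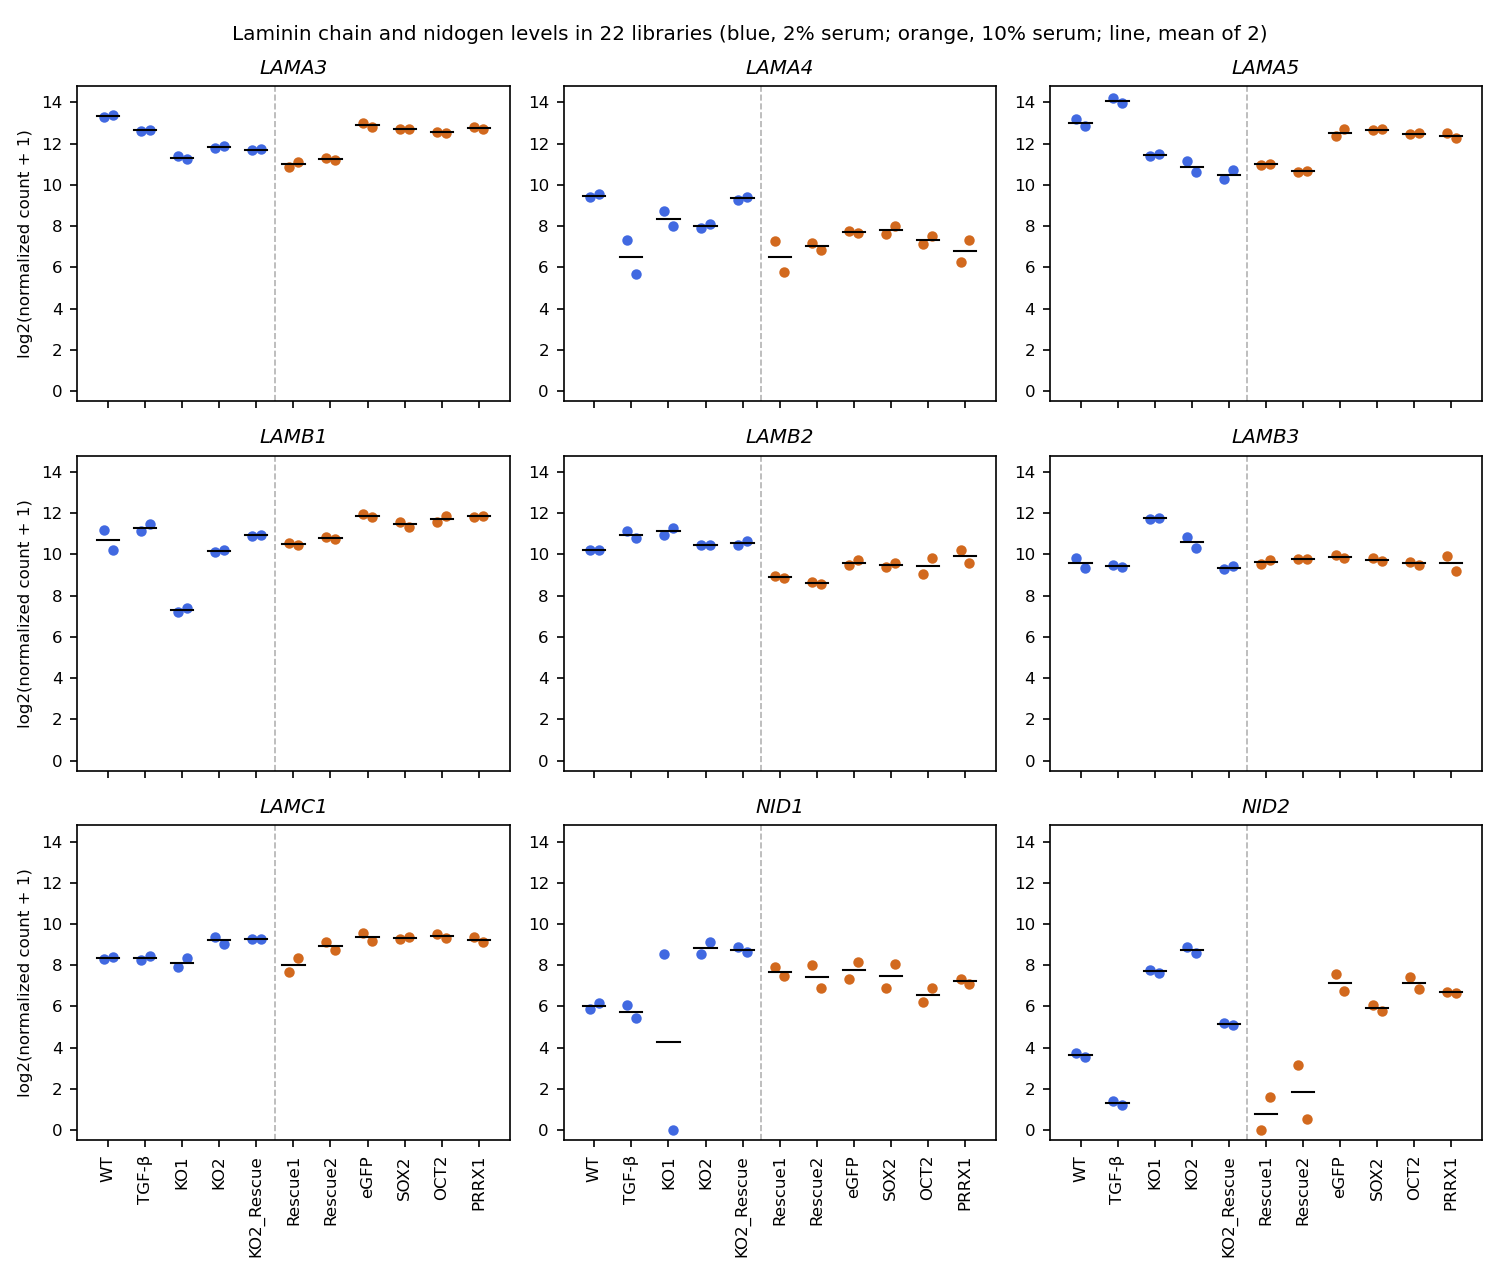
Levels of the 9 genes in the 22 libraries, 1 panel per gene, as log2(normalized count + 1), with points for libraries and a line for the mean of each group of 2. Points left of the dashed line (blue) are from 2% serum and those right of it (orange) from 10% serum. LAMB1 dips to 146 and 171 counts in KO1 alone, NID1 is listed at 0 in 1 KO1 library, and NID2 covers the widest range.

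The effect of TGF-β, the cytokine used here to induce an epithelial-mesenchymal transition, was examined first. With TGF-β, 3 of the 9 genes were called, meaning that limma's moderated test gave an adjusted p below 0.05 with a log2 change beyond 1 in size, against 7.84% of the 14585 genes tested. LAMA5 rose, and LAMA4 and NID2 fell. The NID2 call was lost when any of the 4 WT and TGF-β libraries was left out, and LAMA5, near the fold limit, was not called with quantile normalization or with equal totals.

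LAMA5 was at 18981 and 15970 counts with TGF-β, and both libraries lay above both WT libraries. The log2 change was 1.06 ± 0.18 (SE, n = 2 a group, adjusted p = 5.8e-04, limma). LAMA4 was at 162 and 50.4 counts with TGF-β, below both WT libraries, with a log2 change of −2.95 ± 0.52 (adjusted p = 9.4e-04, limma). LAMA3 was at 6382 and 6465 counts, also below both WT libraries, and its log2 change of −0.69 ± 0.09 passed the adjusted p (6.0e-05, limma) but not the fold limit. LAMA5 therefore made 72.6% and 68.9% of the α chain level per kilobase with TGF-β, and LAMA3 made 26.2% and 29.9%.

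None of the other laminin chains was called with TGF-β, although LAMB2 passed the adjusted p. LAMB2 was at 2262 and 1771 counts, above both WT libraries (log2 change 0.77 ± 0.22, adjusted p = 0.028, limma). LAMB1 was at 2234 and 2852 (0.59 ± 0.22, adjusted p = 0.0837, limma), and was called without the first WT library. LAMB3, at 723 and 679 counts, and LAMC1, at 309 and 346, had log2 changes of −0.13 ± 0.21 and 0.02 ± 0.22, and LAMC1 turned to −0.22 when every library was scaled to the same total. NID1 was at 66.1 and 42.4 counts and overlapped WT. NID2 was at 1.67 and 1.30 counts, about 3 reads in all, which puts WT 7.27 times higher with a counting interval of 2.23 to 37.5 (95%, exact). The count of 3 called genes fell to 1 without the second WT library or without the first TGF-β library, which left LAMA4. It fell to 0 with the 4 compared libraries fitted alone, a fit in which 0 of all genes tested were called.

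Loss of SETD2 was examined in the KO clones, each set against WT in the same medium. In KO1, 5 of the 9 genes were called against 25.0% of all genes tested, and in KO2, 5 against 16.3%. LAMA3, LAMA5, LAMB3 and NID2 were called in both clones, with LAMA3 and LAMA5 lower and LAMB3 and NID2 higher. LAMB1 was called, lower, in KO1 but not in KO2, and LAMA4 in KO2 but not in KO1.

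Both main α chains were lower in both clones. LAMA3 was at 2687 and 2416 counts in KO1 and at 3521 and 3829 in KO2, far under the WT libraries, with log2 changes of −2.03 ± 0.09 (adjusted p = 1.2e-10, limma) and −1.50 ± 0.09 (6.7e-09). LAMA5 was at 2665 and 2861 counts in KO1 and 2297 and 1558 in KO2, with log2 changes of −1.59 ± 0.18 (adjusted p = 3.7e-06, limma) and −2.14 ± 0.18 (2.8e-07). The α chain sum per kilobase came to 568 and 526 in KO1 and 571 and 535 in KO2, against 1870 and 1755 in WT. Because both chains fell, their shares shifted less than with TGF-β, and LAMA5 kept 41.1% and 47.6% of the α chain level in KO1 and 35.2% and 25.5% in KO2.

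LAMA4 was at 421 and 257 counts in KO1 and at 237 and 271 in KO2, below both WT libraries. Its log2 change was −1.10 ± 0.52 in KO1 (adjusted p = 0.107, limma) and −1.48 ± 0.52 in KO2 (adjusted p = 0.0444), and the KO2 call was lost when any of the 4 WT and KO2 libraries was left out. LAMA4 thus stood lower in all 4 KO libraries, on weak statistics.

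Among the β chains, LAMB1 fell and LAMB3 rose in KO1, while in KO2 LAMB1 was not called and the LAMB3 call was not firm. LAMB1 was at 146 and 171 counts in KO1 (log2 change −3.39 ± 0.22, adjusted p = 1.2e-08, limma), and at 1119 and 1175 in KO2 (−0.54 ± 0.22, adjusted p = 0.0816). Without the second WT library, which had 1192 counts, LAMB1 was called in KO2 as well. LAMB3 was at 3430 and 3512 counts in KO1 (2.17 ± 0.21, adjusted p = 1.1e-06, limma) and at 1866 and 1275 in KO2 (1.0 ± 0.21, adjusted p = 0.00219). For LAMB3 the KO2 value sits on the fold limit, and it was not called with a pseudocount of 5, with quantile or total scaling, with the 4 compared libraries fitted alone, or without the second WT or the first KO2 library. LAMB2 was at 1999 and 2502 counts in KO1 (0.93 ± 0.22, adjusted p = 0.00411, limma) and 1430 and 1411 in KO2 (0.27 ± 0.22, adjusted p = 0.42). Of the β chain level per kilobase, LAMB3 made 69.4% and 65.0% in KO1 and 50.8% and 41.1% in KO2, against 26.5% and 28.1% in WT, while LAMB1 made 2.10% and 2.25% and 21.7% and 26.9%.

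LAMC1 was at 239 and 326 counts in KO1 (log2 change −0.21 ± 0.22, adjusted p = 0.491, limma) and at 670 and 526 in KO2 (0.88 ± 0.22, adjusted p = 0.00747), under the fold limit in both clones. LAMA3 and LAMB3, both chains of laminin-332, moved in opposite directions in each clone, LAMA3 lower and LAMB3 higher.

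NID2 showed the largest rise of the 9 genes. It was at 216 and 199 counts in KO1 and at 479 and 390 in KO2, all far above WT, with log2 changes of 4.07 ± 0.69 (adjusted p = 2.2e-04, limma) and 5.13 ± 0.69 (4.0e-05). On the counts KO1 was 18.1 times WT (95% counting interval 12.2 to 28.0) and KO2 38.1 times (25.8 to 58.6). NID1 was at 368 and 566 counts in KO2, above both WT libraries, with a log2 change of 2.83 ± 1.66 (adjusted p = 0.235, limma). That SE draws on all 22 libraries, including a KO1 library that lists NID1 at 0. With the WT and KO2 libraries fitted alone, NID1 was called in KO2. In KO1 NID1 was at 367 counts in the first library and listed at 0 in the second, where 57 genes in all are at 0 with at least 100 counts in the first. The fitted NID1 change in KO1 was −1.75 ± 1.66 (adjusted p = 0.438, limma) and became 2.52 (adjusted p = 0.00305) without that second library. KO1 duplicates also differed more than others over all genes, with a median absolute log2 difference of 0.308 against 0.154 to 0.267 in the other groups.

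**Figure D2:**
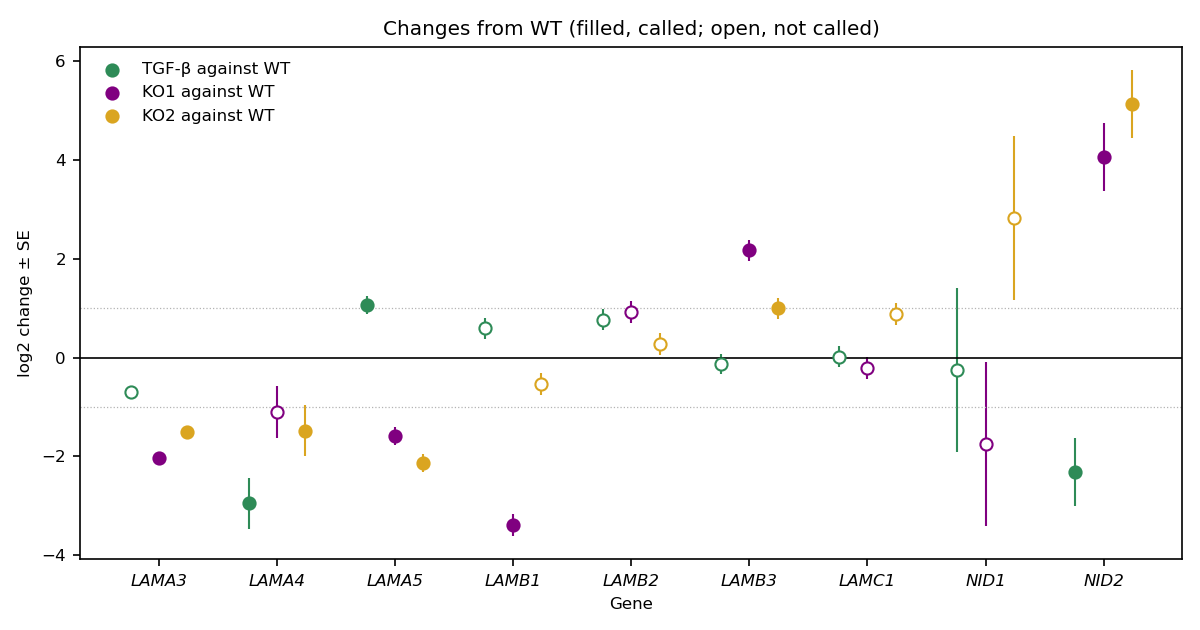
The log2 changes from WT of the 9 genes after TGF-β and in each KO clone, with bars for the SE of the fit (2 libraries a group). Filled points are called and open points are not, with dotted lines at the fold limit. NID2 is at 4.07 and 5.13 in the KO clones and at −2.32 with TGF-β, and LAMA5 is at −1.59 and −2.14 against 1.06.

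The KO clones and TGF-β-treated cells were then set against each other, since the study treats both as models of epithelial-mesenchymal transition. Between the mean of KO1 and KO2 and TGF-β, 6 of the 9 genes were called, against 20.2% of all genes tested. NID2 differed by 6.92 ± 0.59 on the log2 scale (adjusted p = 2.8e-07, limma), LAMA5 by −2.93 ± 0.15 (9.6e-10) and LAMB1 by −2.56 ± 0.19 (5.9e-08). For NID2 and LAMA5 the KO clones and TGF-β lay on opposite sides of WT. LAMB3 differed by 1.72 ± 0.18 (adjusted p = 3.2e-06, limma), LAMA4 by 1.66 ± 0.45 (0.00902) and LAMA3 by −1.07 ± 0.08 (3.2e-08). For LAMA3 and LAMA4 both stood below WT, LAMA3 further below in the KO clones and LAMA4 further below with TGF-β. The LAMA4 call was lost without the second TGF-β library.

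The KO clones also differed from each other in 3 of the 9 genes, against 6.97% of all genes tested. LAMB1 was higher in KO2 than in KO1 by 2.85 ± 0.22 on the log2 scale (adjusted p = 7.7e-07, limma) and LAMC1 by 1.09 ± 0.22 (0.00377), and LAMB3 was lower by 1.17 (SE 0.21, adjusted p = 0.00167). LAMA3 and LAMA5 differed by 0.53 ± 0.09 and −0.55 ± 0.18, under the fold limit, and LAMA4 by −0.37 ± 0.52 (adjusted p = 0.69, limma). NID2 differed by 1.06 ± 0.69 (adjusted p = 0.339, limma) and NID1 by 4.58 ± 1.66 (adjusted p = 0.0775), the latter with the library listed at 0. Calls of LAMC1 and LAMB3 depended on single libraries, as LAMC1 was lost without the first library of KO1 or of KO2 and LAMB3 without the second of KO2. No gene of the 9 was called with the 4 libraries fitted alone, where 1 gene of all those tested was.

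Return towards WT was examined in the rescue clones, which were grown in 10% serum while KO2 was grown in 2%. Against KO2, 3 of the 9 genes were called in the mean of Rescue1 and Rescue2, against 17.5% of all genes tested, and all were lower. The rescue clones differed from each other in 0 of the 9 genes by limma, with 2 at an unadjusted p under 0.05, against 0.994% of all genes called, and without the second Rescue1 library LAMC1 was called.

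NID2 was listed at 0 and 2.01 counts in Rescue1 and at 7.95 and 0.438 in Rescue2, all below the WT libraries. Set against KO2 its log2 change was −7.44 ± 0.59 (adjusted p = 2.0e-07, limma), and the ratio on counts was 344 for KO2 over Rescue1 (95% counting interval 94.9 to 2845) and 111 over Rescue2 (58.0 to 243). LAMB2 was at 499 and 469 counts in Rescue1 and 403 and 379 in Rescue2, with a log2 change of −1.71 ± 0.19 (adjusted p = 7.5e-06, limma), and these were the lowest LAMB2 libraries of all. LAMA4 was at 154, 52.9, 143 and 115 counts (−1.23 ± 0.45, adjusted p = 0.0463, limma), and this call was lost without either KO2 library, without the second Rescue1 library or without either Rescue2 library.

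The α chains did not return to their WT level in the rescue clones. LAMA3 was at 1893 to 2491 counts over the 4 libraries, a further log2 change of −0.71 ± 0.08 from KO2 (adjusted p = 3.8e-06, limma), under the fold limit. LAMA5 was at 1606 to 2053 counts (−0.06 ± 0.15, adjusted p = 0.796). LAMB1 was at 1425 to 1821 counts (0.49 ± 0.19, adjusted p = 0.0602) and LAMB3 at 745 to 871 counts (−0.89 ± 0.18, adjusted p = 0.00167), both within the range of the WT libraries. Against KO1 in place of KO2, 5 genes were called, against 26.8% of all genes tested, as LAMB1 (3.34 ± 0.19) and LAMB3 (−2.06 ± 0.18) were added.

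The libraries labelled KO2_Rescue, in 2% serum, gave a different set. Against KO2, 2 of the 9 genes were called, against 4.17% of all genes tested. NID2 was at 35.4 and 33.6 counts, between WT and KO2, with a log2 change of −3.61 ± 0.69 from KO2 (adjusted p = 0.00283, limma). LAMB3 was at 618 and 698 counts, overlapping the WT libraries (−1.23 ± 0.21, adjusted p = 0.00138, limma), a call lost without the first KO2 library. LAMB1, at 1921 and 2001 counts (0.77 ± 0.22, adjusted p = 0.0374), and LAMA4, at 616 and 689 counts (1.36 ± 0.52, adjusted p = 0.125), were above both KO2 libraries but not called. LAMA3 at 3258 and 3438 counts and LAMA5 at 1261 and 1672 were close to the KO2 libraries and not called. In these libraries the 8 fibroblast and pericyte genes summed to 39200 to 41538 counts, between WT and KO2.

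Cells transduced with eGFP in 10% serum were compared with untransduced WT cells in 2% serum, a comparison in which serum and transduction cannot be told apart. Of the 9 genes 4 were called, against 12.7% of all genes tested. NID2 was at 187 and 108 counts (log2 change 3.53 ± 0.69, adjusted p = 0.00133, limma), LAMB1 at 3951 and 3568 (1.17 ± 0.22, 0.00111), LAMC1 at 767 and 579 (1.04 ± 0.22, 0.00266) and LAMA4 at 215 and 204 (−1.75 ± 0.52, 0.0209). The eGFP libraries held 3128 and 2947 counts of SETD2. LAMA3 was at 8241 and 7213 counts (−0.43 ± 0.09, adjusted p = 0.00188). The count of 4 fell to 2 without the first WT library, without the second WT library, without the first eGFP library, or with the 4 libraries fitted alone, and NID2 was the only gene called under each of these. The LAMA4 call was lost when any of the 4 WT and eGFP libraries was left out.

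Within 10% serum the rescue clones differed from eGFP cells in 4 of the 9 genes, against 13.1% of all genes tested, and all 4 were lower. NID2 differed by −5.84 ± 0.59 on the log2 scale (adjusted p = 3.3e-06, limma), LAMA3 by −1.78 ± 0.08 (3.5e-10), LAMA5 by −1.71 ± 0.15 (8.7e-07) and LAMB1 by −1.22 ± 0.19 (2.1e-04). On counts, eGFP cells held 111 times the NID2 of Rescue1 (95% counting interval 30.6 to 925) and 35.9 times that of Rescue2 (18.6 to 79.3). In this shared medium LAMA3 and LAMA5 therefore stood below transduced WT cells in the rescue clones, as they did below WT in the KO clones in 2% serum.

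SOX2, OCT2 and PRRX1, transcription factors expressed ectopically in WT cells, were compared with eGFP. By limma 0 of the 9 genes were called in any of the 3 lines, against 0.0206%, 0.0343% and 0.0411% of all genes tested, and 1, 1 and 0 of the 9 genes had an unadjusted p under 0.05. The largest fitted value was −1.22 for NID2 with SOX2, at 67.2 and 54.6 counts, followed by −1.20 for NID1 with OCT2, at 72.2 and 119 counts. The SEs of these fitted values were 0.69 and 1.66, so only large changes of the nidogens were detectable in this fit. The SE of NID1 draws on the spread within all 11 groups, which includes the KO1 library that lists it at 0.

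**Figure D3:**
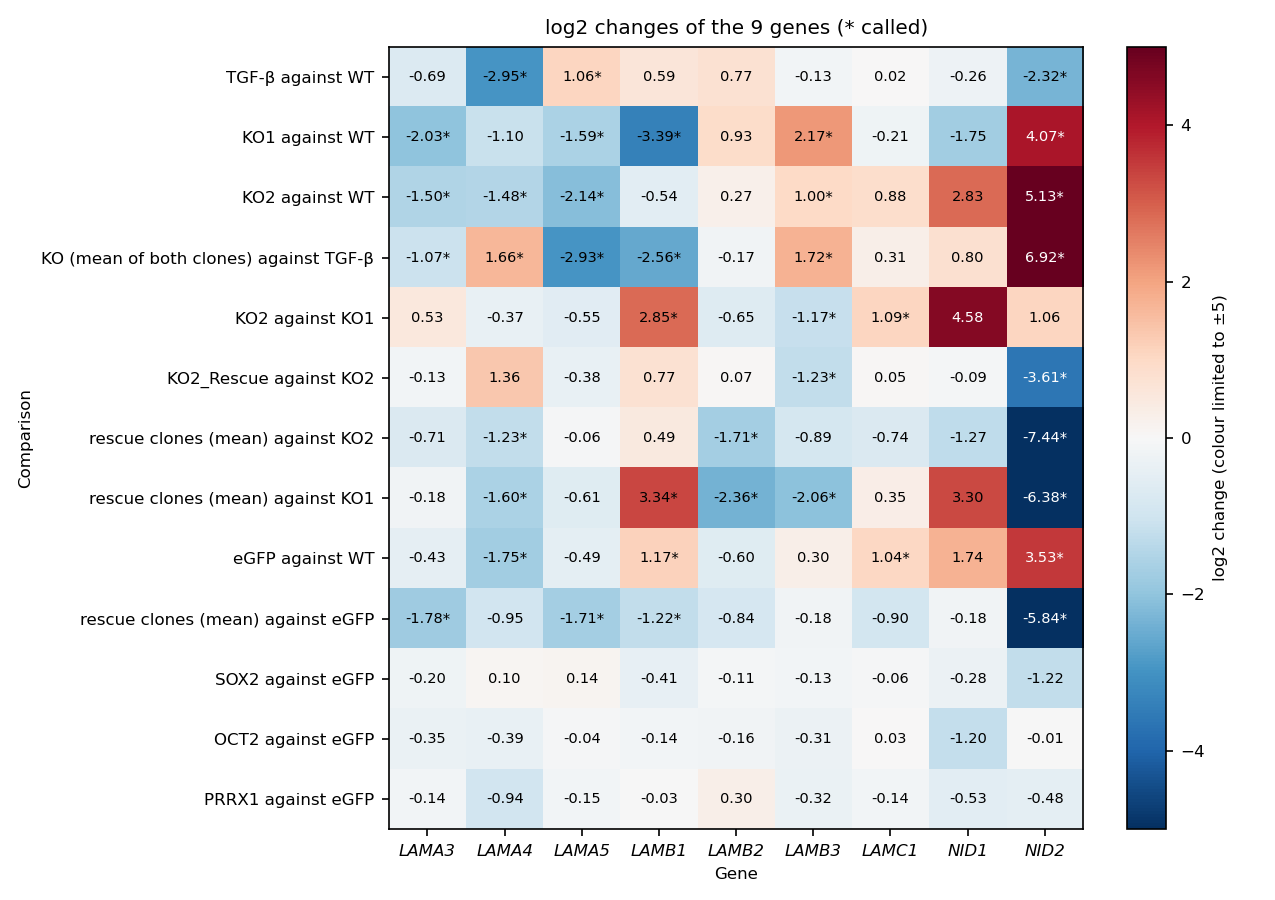
Fitted log2 changes of the 9 genes (columns) in 13 comparisons (rows), with an asterisk where called and colour limited to ±5. NID2 runs from −7.44 in the rescue clones against KO2 to 6.92 in the KO clones against TGF-β, and no gene is called in the lines with SOX2, OCT2 or PRRX1.

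Over the 11 groups the genes varied to very different extents. The highest group mean was 23.6 times the lowest for LAMB1, 11.9 times for LAMA5 and between 2.59 and 8.60 times for LAMA3, LAMA4, LAMB2, LAMB3, LAMC1 and NID1. LAMB1 was highest in eGFP cells and lowest in KO1, and LAMA5 highest with TGF-β and lowest in KO2_Rescue. LAMB2 and LAMB3 were both highest in KO1. In the order of group means, libraries of neighbouring groups overlapped for 3 of 10 neighbours in LAMA3 and NID2 and for 6 to 8 of 10 in the other 7 genes. An absence of overlap between duplicates does not establish an order, and its share over all genes was not examined. By group mean alone, LAMA3 ran in the order WT, eGFP, PRRX1, SOX2, TGF-β, OCT2, KO2, KO2_Rescue, KO1, Rescue2 and Rescue1. For NID2 the means ran in the order KO2, KO1, eGFP, OCT2, PRRX1, SOX2, KO2_Rescue, WT, Rescue2, TGF-β and Rescue1. NID2 was not called between eGFP cells and the OCT2, PRRX1 or SOX2 lines, so those steps are not established.

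Likeness between genes was described by Pearson's r of log2 group means over the 11 groups, which share control and parent cells. Within the 9 genes LAMA3 and LAMA5 were most alike (r = 0.81), and LAMB1 and LAMB3 least (r = −0.88). LAMB1 and LAMC1 had r = 0.60, and NID2 was most like LAMC1 (0.57). Among all other genes tested, the gene most like LAMA3 was AGAP9 (r = 0.970), that most like LAMB1 was the pseudogene CBX3P2 (0.979), that most like LAMB3 was PNPLA8 (0.976), and that most like NID2 was CD3G (0.960). For LAMA4 it was STK35 (0.911), for LAMA5 SLC41A2 (0.958), for LAMB2 CNPY2 (0.964), for LAMC1 LSAMP (0.938) and for NID1 ENTREP1 (0.956). With 14585 genes and 11 means, values of this size are a description only.

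**Figure D4:**
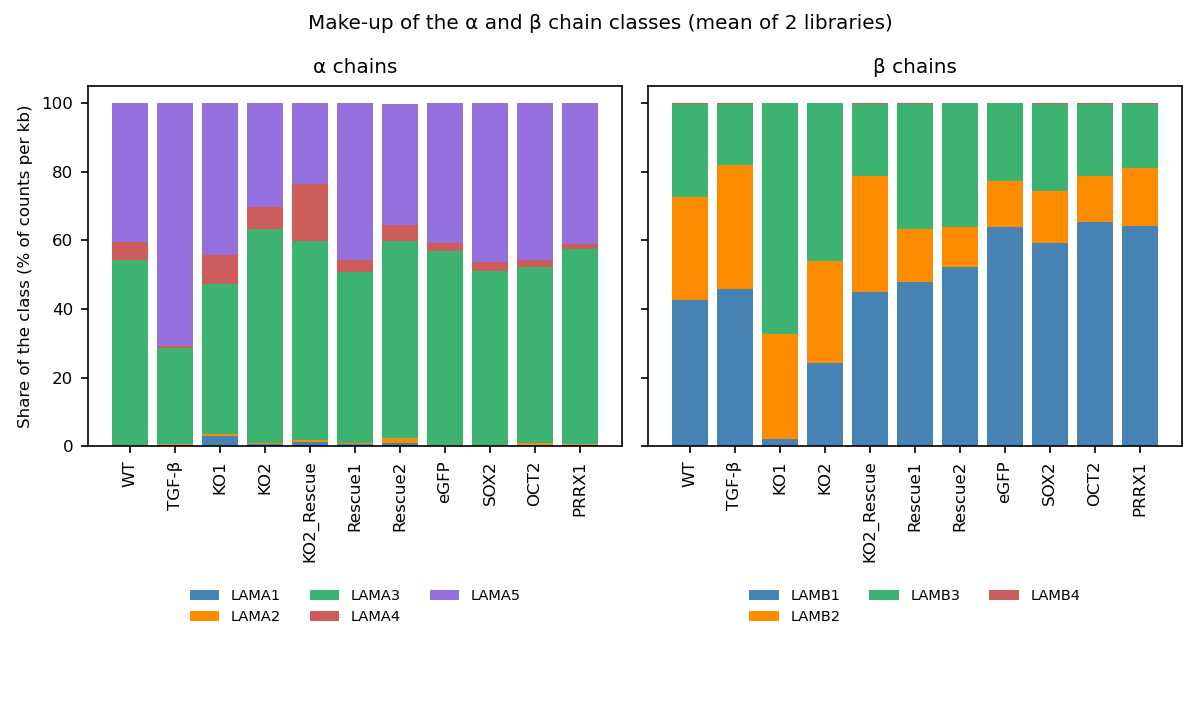
Make-up of the α and β chain classes in the 11 groups, as the percentage of summed normalized counts per kilobase of canonical transcript held by each chain (mean of 2 libraries). The α5 chain reaches 72.6% and 68.9% with TGF-β, and the β3 chain 69.4% and 65.0% in KO1.

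The remaining components of the basement membrane were counted for context. Of 22 other basement membrane genes, such as type IV collagens, perlecan and agrin, 19 were tested. By call, 5 rose and 2 fell with TGF-β, 3 rose and 8 fell in KO1, and 3 rose and 5 fell in KO2. Over all genes tested, 7.84%, 25.0% and 16.3% were called in these comparisons. The genes named below are, of those called in both KO clones or with TGF-β, the ones with the largest mean KO changes. SMOC1, a secreted calcium-binding matrix protein, went from 61.3 and 27.1 counts in WT to 2778 and 2875 in KO1 and 2301 and 1818 in KO2 (log2 changes 6.08 ± 0.25 and 5.61 ± 0.25). SMOC1 was also at 417 and 469 counts in eGFP cells, 1266 and 1066 in Rescue1, and 128 and 126 in Rescue2. All of these lay above the WT libraries. EGFLAM, a ligand of dystroglycan, was at 0 and 0.917 counts in WT, 21.3 and 62.5 in KO1, and 15.0 and 13.7 in KO2, and was called in both. NPNT, nephronectin, fell from 512 and 595 counts in WT to 23.5 and 16.1 in KO1 and 12.8 and 19.9 in KO2. The low level was not particular to the KO clones, as NPNT was at 10.3 and 19.3 counts in eGFP cells and 146 and 139 with TGF-β. SMOC2 was at 24.9 and 29.9 counts in WT, was listed at 0 in both KO1 libraries, and was at 1.20 and 0 in KO2. It was also at 0 and 1.34 counts with TGF-β and listed at 0 in both eGFP libraries. COL4A6, a type IV collagen chain, went from 63.1 and 97.0 counts in WT to 18.0 and 14.6 in KO1 and 6.44 and 8.11 in KO2. COL4A1, the partner of COL4A2 in the main collagen IV trimer, was called lower in both clones, at 8.49 to 74.5 counts, but its WT libraries were at 5934 and 125 counts, so the size of that change is not known.

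Laminin receptors were counted in the same way, and of 13 tested, 2 rose and 1 fell with TGF-β, 2 rose and 4 fell in KO1, and 1 rose and 3 fell in KO2. The shares called over all genes tested were 7.84%, 25.0% and 16.3%. ITGB4, the β4 subunit of the laminin-332 receptor, fell from 3812 and 5723 counts in WT to 233 and 153 in KO1 and 199 and 300 in KO2 (log2 changes −4.62 ± 0.31 and −4.25 ± 0.31). ITGA6, its α6 partner, was at 1125 and 1170 counts in WT and 331 and 342 in KO2, and was listed at 0 in both KO1 libraries. BCAM, a receptor for laminin α5, fell from 740 and 1052 counts in WT to 121 and 123 in KO1, 147 and 155 in KO2, and 185 and 201 with TGF-β. ITGA1, the α1 subunit of a collagen and laminin receptor, rose from 224 and 129 counts in WT to 2958 and 2779 in KO1, 2350 and 1979 in KO2, and 330 and 402 with TGF-β. ITGB1, the β1 subunit shared by many integrins, rose from 4160 and 3213 counts to 9462 and 8625 with TGF-β (1.30 ± 0.15) and was not called in either clone.

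Of 4 further laminin chain genes, LAMC3 was too low to be tested, and LAMA1, LAMA2 and LAMB4 were not called with TGF-β or in either KO clone. LAMA1 was at 191 and 125 counts in KO1 against 32.7 and 22.1 in WT (log2 change 2.48 ± 1.29, adjusted p = 0.144, limma), and LAMB4 did not exceed 22.5 counts in any library.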

How the data were processed

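RNA-seq values for 36859 genes in 22 libraries were taken as deposited. Per the labels, libraries were made with a stranded mRNA kit. The authors ran Salmon 1.9.0 against GRCh38 cDNA (Ensembl release 94), then DESeq2 1.26.0, per the submitters' processing notes and the study's methods. The deposited log2 values are not described further. All libraries share a lowest value of 11.32, and inverting a variance-stabilizing transformation yields values that bunch at whole multiples of a per-library step, so they were converted to normalized counts in this way. The plan had taken them for linear counts, and the planned test was kept. Reads per library were approximated as total over step. Whether Salmon used strand is not given in the sources used here, so reads of antisense or overlapping genes cannot be told apart. An exact 0 can be a failed estimate.

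Groups came from the labels. Genes reaching 10 normalized counts in 2 or more libraries (14585, all 9 members among them) were tested with limma 3.58.1 (R 4.3.3, variance trend) on log2(normalized count + 1), with 1 mean per group over all 22 libraries and Benjamini-Hochberg adjustment over all genes tested. Fold changes are on that scale, which understates changes of low genes. Calls needed an adjusted p below 0.05 and a log2 change beyond 1 in size. Counting intervals are exact (Clopper-Pearson, 95%) on approximate reads and cover counting error only. Symbols, positions and canonical transcript lengths came from GENCODE release 44 (33878 genes matched), and promoters from RefSeq, in which all 9 members matched. The procedure was tested on simulated data, with a log2 change of 2 given to 200 of 14585 genes in KO1. Of these, 102 were called against WT, with 5 false calls. Of the 128 with a mean of at least 50 counts, 101 were called, so an uncalled low gene may still have changed. Tables and figures were made with matplotlib 3.10.9, scipy 1.17.1, pandas 2.3.3 and numpy 2.4.6 in Python 3.11.15.

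The members, gene lists and tests were chosen with earlier results of these data known. All 9 members are given. From the lists of other chains, other basement membrane genes and receptors, genes called in both KO clones or with TGF-β are named, at most 6 a list, by the size of their mean KO change, and LAMA1, LAMB4 and SETD2 were added after their values were seen. Some results are not reported here. Alternatives were a pseudocount of 0.5 or 5, dropping the filter, requiring a mean of 50 counts, equal totals, quantile normalization, the compared libraries alone, the deposited log2 values, a replicate block, each library left out, and KO1 or both clones as the reference for rescue.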

Additional observations from a re-analysis of the deposited data

Results flagged for a closer look

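The change from WT differed between the SETD2 KO clones for 3 of the 9 genes, by a test of the difference itself (limma, KO2 against KO1). LAMB1 differed by 2.85 on the log2 scale, at 146 and 171 normalized counts in KO1 and 1119 and 1175 in KO2. LAMB3 differed by −1.17, at 3430 and 3512 counts in KO1 and 1866 and 1275 in KO2. LAMC1 differed by 1.09, at 239 and 326 counts in KO1 and 670 and 526 in KO2. Each KO group is a single clone, so clone and any effect of SETD2 cannot be told apart in these differences.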

How the results depend on the processing

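Of 35 calls of members over the 13 comparisons, 0 turned direction under any alternative, and 34 kept an adjusted p under 0.05 in the same direction on the deposited log2 values. That scale compresses low levels, so few members passed its fold limit, and the number called became 0 with TGF-β, 1 in KO1, 1 in KO2, 1 in KO against TGF-β, and 0 in KO2 against KO1, rescue against KO2, KO2_Rescue against KO2, eGFP against WT and rescue against eGFP. With the compared libraries fitted alone, where fewer libraries set the spread, it became 0 with TGF-β, 0 in KO2 against KO1 and 2 in eGFP against WT. Rescue against KO1, or against the mean of both clones, gave 5 called genes each, against 26.8% and 23.3% of all genes tested. Leaving out 1 library gave 1 to 3 called genes with TGF-β, 5 to 7 in KO1, 3 to 5 in KO2, 5 to 7 in KO against TGF-β, 2 to 3 in KO2 against KO1, 2 to 3 in rescue against KO2, 0 to 1 in Rescue2 against Rescue1, 1 to 2 in KO2_Rescue, 2 to 3 in eGFP against WT, 4 to 5 in rescue against eGFP, and 0 in the SOX2, OCT2 and PRRX1 lines.

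Every change that turned sign was uncalled, and all but that of NID1 in KO1 were near 0. With TGF-β, LAMB3 ran from −0.36 to 0.10 with 1 library left out, the latter without the first WT library, LAMC1 became −0.22 with equal totals, −0.03 without the first WT library and −0.06 without the second TGF-β library, and NID1 ran from −0.57 to 0.06, the latter without the second TGF-β library. In KO1, LAMC1 ran from −0.44 to 0.01, the latter without the first KO1 library. NID1 became 0.04 on the deposited log2 values, and ran from −6.01 without the first KO1 library to 2.52 without the second, which lists it at 0, and was called both times. In rescue against KO2, LAMA5 became 0.24 with equal totals and ran from −0.34 to 0.22 with 1 library left out, the latter without the first KO2 library. Equal totals moved the median of all genes by −0.392 in KO1, −0.199 with TGF-β and −0.204 in KO2.

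Replicate numbers share only a number, as the deviations of same-numbered libraries correlated at −0.14 to 0.10 over 55 pairs of groups. A replicate block kept the call or its absence in all but 1 of the results named and lost that of LAMA4 in rescue against KO2, where the number called became 2. Depth limits NID2, at 3 reads with TGF-β.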
